A study of Homo sapiens with 6 samples.

Results

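The transcripts of 10 genes that mark fat cells were followed in 6 tumors grown as xenografts from CRL-5889, a human lung squamous carcinoma cell line. The 10 genes are PPARG, PLIN1, PLIN4, CIDEC, FABP4, ADIPOQ, LEP, LPL, CD36 and CFD. Every probe set whose annotation names exactly one of them was taken, which gave 25 of 49293 probe sets, for 10 of 18132 genes with a probe set of their own. In 3 tumors the implanted cells had been transfected with the TRA2B-DNAH5 fusion, and in the other 3 with the vector. All 6 tumors grew in nude mice, were harvested 4 weeks after implantation and gave total RNA for 1 Affymetrix array each. The labels call the tumors biological replicates, do not say which mouse carried which tumor, and name neither the promoter of the construct nor whether the transfected cells were a clone or a pool. Differences between the transfected populations therefore cannot be told apart from the fusion, and p values measure the spread between these tumors.

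Fat cells are built under the nuclear receptor PPARG, which pairs with RXR and works together with C/EBP transcription factors. Mature adipocytes store triglyceride in a droplet coated by perilipins and CIDEC, take up fatty acids through LPL and CD36, carry them on FABP4, and secrete the hormones adiponectin (ADIPOQ) and leptin (LEP) and the complement protease adipsin (CFD). In a tumor under the skin of a mouse, any adipocyte is a host cell, whereas the probes of these arrays were designed on human transcripts. A mouse transcript is read only as far as it binds human probes, and mouse and human RNA were not told apart. Several of the 10 genes also have known roles outside fat: CD36 and FABP4 in macrophages and capillary endothelium, and LPL in muscle.

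Median log2 levels of the arrays were 6.34 to 6.39 in fusion tumors and 6.27 to 6.37 in vector tumors, and Pearson's r between any pair of arrays over all probe sets was 0.989 to 0.997. The first principal component, with 42.4% of the variance, set vector tumor 1 (score 55.8) apart from the remaining tumors (-14.8 to -2.73), and values without it are given beside several results. Of 8 markers of the line with a probe set, KRT18, SOX2, CDH2 and VIM exceeded the dim level defined below, while the epithelial markers KRT5, KRT8, EPCAM and CDH1 did not. The number of arrays limits the precision.

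Most of the adipocyte transcripts were dim. As a stand-in for genes with no transcript in these tumors, 359 probe sets naming an olfactory receptor gene were used; their means over the 6 tumors had a median log2 level of 4.30 and a 95th percentile of 5.81. Only 6 of the 25 adipocyte probe sets, from PLIN4, CIDEC, ADIPOQ and CFD, had a mean above 5.81. That level was exceeded by 28278 of all 49293 probe sets, and by 11436 of all 18132 genes by their brightest probe set. By their brightest probe set, PPARG, PLIN1, FABP4, LEP, LPL and CD36 did not reach that level. Probes differ in how strongly they bind, so this places each probe set against a background and does not rank the genes by abundance. A filter on mean level at the 30th percentile, 4.94 on the log2 scale, would have kept 11 of the 25 probe sets and 7 of the 10 genes. By brightest probe set LEP lay just below it, and PPARG, at a mean of 5.09, was the gene just above it. No filter was applied here.

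**Figure D1:**
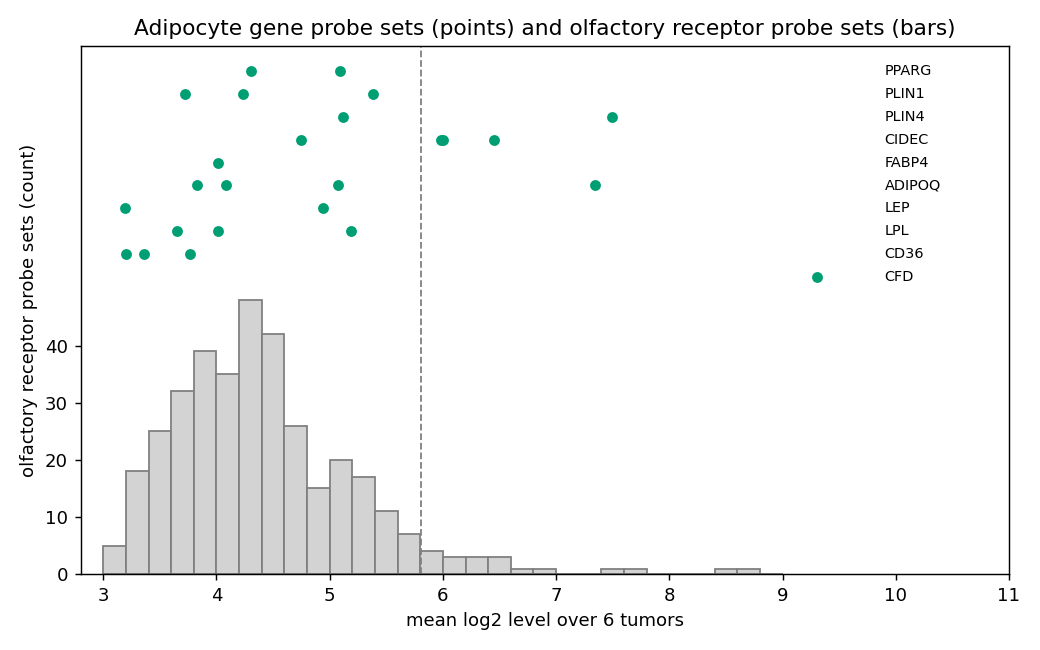
Mean log2 level over 6 tumors (x axis) of the 25 adipocyte probe sets, 1 row of points per gene, above the distribution of 359 olfactory receptor probe sets (bars, count on the y axis). The dashed line is the olfactory receptor 95th percentile, 5.81. All probe sets of 6 genes lie left of it, and CFD at 9.30 lies right of every olfactory receptor probe set.

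No adipocyte transcript differed between fusion and vector tumors at the threshold used. With limma fitted over all 49293 probe sets and an adjusted p of 0.05 (Benjamini-Hochberg), 0 of the 25 passed, and 5 of all probe sets did, 0.0101%. The smallest adjusted p among the 25 was 0.861, for PPARG. At an unadjusted limma p of 0.05, 4 adipocyte probe sets were lower in fusion tumors and 0 were higher, where 2.13% of all probe sets were lower and 3.1% higher. Those 4 are the brightest probe sets of PPARG, PLIN1, CIDEC and LEP, so 4 of 10 genes by this measure, where 2.28% of all genes were lower by their brightest probe set. Log2 fold changes, given throughout as fusion minus vector, were below 0 for 19 of the 25 probe sets (76%), against 47.2% of all probe sets, with a median of -0.11 against 0.0085. By brightest probe sets 8 of the 10 genes were below 0, against 49.8% of all genes. The genes were chosen with earlier results of these tumors known, so these counts describe them and are no independent evidence of a direction.

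The promoter windows of the 4 genes with an unadjusted p below 0.05 are shown here, so that the letters near their starts can be read beside their values. Each runs from 250 bases before to 50 after an annotated start, 5′ to 3′ along the gene (RefSeq, GRCh38.p14). Capitals mark TTGCNNAA, a core of the sites that C/EBP factors bind. PPARG has 6 such windows and CIDEC 2, of which the one with the most cores, or at a tie the lowest coordinate, is printed. This choice favours windows with a core, which 1 of the 6 PPARG windows and 2 of the 2 CIDEC windows hold.
PPARG chr3:12351167-12351466 (+): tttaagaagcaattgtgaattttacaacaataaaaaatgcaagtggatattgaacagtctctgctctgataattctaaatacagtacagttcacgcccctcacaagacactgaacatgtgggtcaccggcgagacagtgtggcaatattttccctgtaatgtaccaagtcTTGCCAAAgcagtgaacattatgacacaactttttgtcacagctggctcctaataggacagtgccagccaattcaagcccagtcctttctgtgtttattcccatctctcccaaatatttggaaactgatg
PLIN1 chr15:89679318-89679617 (-): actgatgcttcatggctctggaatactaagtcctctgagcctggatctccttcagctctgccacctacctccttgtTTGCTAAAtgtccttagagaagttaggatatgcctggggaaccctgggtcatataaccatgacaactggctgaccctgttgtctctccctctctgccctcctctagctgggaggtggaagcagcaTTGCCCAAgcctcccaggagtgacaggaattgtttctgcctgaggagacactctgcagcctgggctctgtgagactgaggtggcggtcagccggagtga
CIDEC chr3:9878763-9879062 (-): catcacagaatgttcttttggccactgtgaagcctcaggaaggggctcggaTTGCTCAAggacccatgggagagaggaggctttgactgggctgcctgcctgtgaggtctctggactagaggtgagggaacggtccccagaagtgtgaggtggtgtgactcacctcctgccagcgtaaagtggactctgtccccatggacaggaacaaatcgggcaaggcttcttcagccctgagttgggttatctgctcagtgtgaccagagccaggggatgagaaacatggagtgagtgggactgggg
LEP chr7:128241028-128241327 (+): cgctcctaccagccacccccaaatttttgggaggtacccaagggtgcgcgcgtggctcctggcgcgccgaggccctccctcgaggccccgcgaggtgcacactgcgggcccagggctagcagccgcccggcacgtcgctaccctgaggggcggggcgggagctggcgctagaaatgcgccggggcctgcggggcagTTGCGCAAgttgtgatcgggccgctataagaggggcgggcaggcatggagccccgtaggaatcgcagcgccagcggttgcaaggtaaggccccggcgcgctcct

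Windows were at hand for 8 of the 10 genes, 19 in all. The core TTGCNNAA, searched on both strands, was in 5 of the 19 and in 10.5% of all 35116 promoter windows. The LEP window holds it as the palindrome TTGCGCAA, a special case of the core that 0.151% of all windows hold, starting 54 bases before the annotated start. In the windows printed the core starts 80 bases before the start for PPARG, 174 and 49 for PLIN1, and 199 for CIDEC. The nuclear receptor half-site AGGTCA was in 3 of the 19 windows, all of them of PPARG, and in 13.8% of all windows. The element bound by PPARG with RXR was searched as that half-site repeated head to tail with any 1 base between, and was in 0 of the 19 and in 0.0228% of all. A TATAAA box was in 4 of the 19, of PPARG and CD36, and in 11.5% of all. Some windows of 1 gene overlap, among them the PPARG windows starting at 12288810 and 12288820, which each hold 1 half-site and 1 TATAAA box. The same site may thus be counted more than once. The motifs were chosen after the values were seen, these matches describe letters, and no match says only that the letters are not in the window.

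PPARG, the regulator, had the lowest log2 fold change of the 25 probe sets. Its brightest probe set read 4.66, 5.14 and 4.90 in fusion tumors 1 to 3, against 5.26, 5.34 and 5.24 in vector tumors 1 to 3. Every fusion tumor was below every vector tumor, and fusion tumor 1 was the lowest. Fusion tumors averaged 4.90 ± 0.24 and vector tumors 5.28 ± 0.048 (SD, n = 3 each), a log2 fold change of -0.38, or 0.767-fold (SE 0.13, 95% confidence interval -0.68 to -0.089, limma adjusted p = 0.861; exact two-sided permutation p = 0.1, the smallest that 3 against 3 tumors allow). The second PPARG probe set read 4.17, 4.02 and 4.33 in fusion tumors and 4.31, 4.66 and 4.35 in vector tumors. There the groups overlapped, with a log2 fold change of -0.27 (SE 0.13, adjusted p = 0.976). Without vector tumor 1 the log2 fold change of the brightest PPARG probe set was -0.39 (limma adjusted p = 0.601).

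Among 13693 other genes with a brightest probe set at or above the 30th percentile, the 5 whose values over the 6 tumors lay closest to those of PPARG, each centred on its own mean, were MALT1, SYT17, PTCH1, SLC22A5 and TCEAL9. Their root mean square differences from PPARG were 0.051 to 0.062 on the log2 scale, where the median gene had 0.27. None of the 5 is in the adipocyte set, from which the filter had removed FABP4, LEP and CD36. The adipocyte genes left were so few among 13693 that this does not show whether PPARG moved with them.

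The droplet coat proteins PLIN1, CIDEC and PLIN4 had log2 fold changes of -0.33, -0.26 and -0.14 by their brightest probe sets, and none passed the threshold. PLIN1, the perilipin that guards the adipocyte droplet from lipases, read 5.33, 5.19 and 5.12 in fusion tumors 1 to 3 by its brightest probe set, against 5.27, 5.59 and 5.78 in vector tumors 1 to 3. Fusion tumor 1 lay above vector tumor 1, so the groups overlapped. The log2 fold change was -0.33 (SE 0.14, 95% confidence interval -0.65 to -0.017, limma adjusted p = 0.942). When single tumors were left out it ran from -0.47 without vector tumor 1 (adjusted p = 0.323) to -0.22 without vector tumor 3 (adjusted p = 0.916), and the mean of the 3 probe sets gave -0.071. The other PLIN1 probe sets, with means of 4.23 and 3.72, had log2 fold changes of -0.046 and 0.17, so the probe sets of this gene differed in sign.

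CIDEC, which enlarges droplets by moving lipid between them, read 6.24, 6.29 and 6.42 in fusion tumors by its brightest probe set and 6.76, 6.53 and 6.45 in vector tumors. The groups did not overlap, but the highest fusion and the lowest vector value were 6.42 and 6.45. The log2 fold change was -0.26 (SE 0.11, 95% confidence interval -0.52 to -0.0032, limma adjusted p = 0.950; exact permutation p = 0.1). Without vector tumor 1 it was -0.17, no longer at an unadjusted p below 0.05 (limma adjusted p = 0.824), and the mean of the gene's 4 probe sets gave -0.058. The remaining CIDEC probe sets gave 0.14, 0.045 and -0.15. These carry the suffix _x_at, with which Affymetrix names a probe set some of whose probes also match other sequences, and a transcribed pseudogene, CIDECP1, is annotated on the same chromosome as CIDEC. Their readings are thus uncertain as to gene.

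PLIN4, a perilipin that coats small droplets, was well above the dim level, at 7.34, 7.46 and 7.48 in fusion tumors against 7.65, 7.43 and 7.62 in vector tumors. The groups overlapped, with a log2 fold change of -0.14 (SE 0.10, limma adjusted p = 0.976). A second PLIN4 probe set pointed the other way, at 5.55, 5.11 and 5.11 in fusion tumors and 4.80, 4.96 and 5.19 in vector tumors. Its log2 fold change of 0.28 (SE 0.15) was the highest of the 25.

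**Figure D2:**
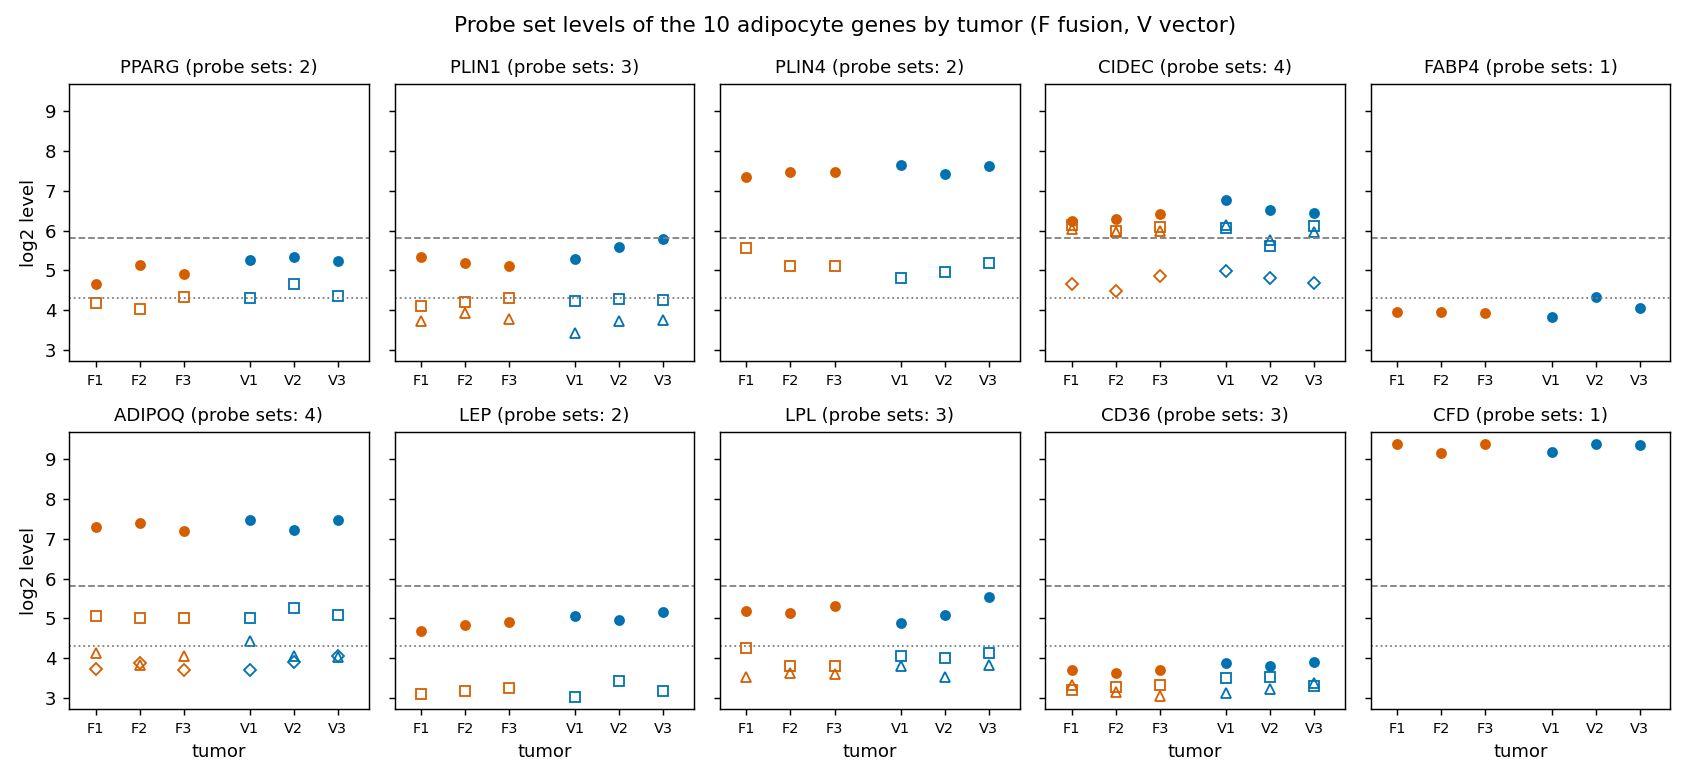
Log2 level (y axis) of every probe set of the 10 genes in fusion tumors F1 to F3 (orange) and vector tumors V1 to V3 (blue), with a symbol shape per probe set and filled symbols for the brightest one. Lines mark the olfactory receptor median (dotted, 4.30) and 95th percentile (dashed, 5.81). Probe sets of one gene lie up to several log2 units apart, while the 6 tumors lie close together within a probe set.

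The hormones gave low or ambiguous readings. LEP read 4.70, 4.84 and 4.90 in fusion tumors against 5.07, 4.95 and 5.16 in vector tumors by its brightest probe set. The groups did not overlap, with a log2 fold change of -0.25 (SE 0.11, limma adjusted p = 0.950; exact permutation p = 0.1), and -0.14 for the mean of its probe sets. The other LEP probe set, with a mean of 3.19, was dimmer than all but 1.39% of the olfactory receptor probe sets and had a log2 fold change of -0.032.

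ADIPOQ, a hormone gene known for its restriction to fat cells, had 4 probe sets with means of 7.34, 5.07, 4.08 and 3.83. The brightest, an _x_at probe set, read 7.30, 7.39 and 7.21 in fusion tumors and 7.48, 7.21 and 7.47 in vector tumors. The next, of the type meant for transcript variants of 1 gene (_a_at), read between 4.999 and 5.07 in fusion tumors and between 5.01 and 5.26 in vector tumors. Groups overlapped in all 4, and the log2 fold changes were -0.16 to -0.090. Only the _x_at probe set with the highest mean thus put ADIPOQ above the dim level, and 82.2% of olfactory receptor probe sets were dimmer than the _a_at one.

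CFD, adipsin, had a single probe set, which was the brightest of the 25. It read 9.38, 9.17 and 9.37 in fusion tumors against 9.18, 9.37 and 9.35 in vector tumors. The groups overlapped fully, with means of 9.31 ± 0.12 in fusion tumors and 9.30 ± 0.11 in vector ones (SD, n = 3 each), and the 95% confidence interval of the log2 fold change was -0.24 to 0.25. Whether this level is adipocyte RNA was not tested; CFD is also made by cells other than adipocytes, among them macrophages.

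None of the fatty acid uptake and transport genes FABP4, CD36 and LPL exceeded the dim level. FABP4, the fatty acid binding protein of fat cells, read 3.95, 3.96 and 3.93 in fusion tumors and 3.84, 4.33 and 4.05 in vector tumors. Vector tumor 1 was the lowest and vector tumor 2 the highest, and the log2 fold change was -0.13 (SE 0.13). It was -0.25 without vector tumor 1 and -0.00037 without vector tumor 2. All 3 CD36 probe sets, for the fatty acid translocase, had means of 3.20 to 3.77, below the olfactory receptor median.

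The brightest CD36 probe set read 3.71, 3.62 and 3.70 in fusion tumors against 3.87, 3.81 and 3.90 in vector tumors, without overlap, with a log2 fold change of -0.19 (SE 0.092, limma adjusted p = 0.976; exact permutation p = 0.1). LPL, the lipase that frees fatty acids from lipoproteins, read 5.18, 5.12 and 5.32 in fusion tumors and 4.89, 5.08 and 5.54 in vector tumors, the widest vector spread of any of the 10 genes (SD 0.33). Its log2 fold change was 0.040 (SE 0.16), and ran from -0.098 without vector tumor 1 to 0.22 without vector tumor 3.

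Over the 10 genes by their brightest probe sets, every fusion tumor was below every vector tumor for 4 (PPARG, CIDEC, LEP and CD36), and every fusion tumor above for 0. Over all genes by the same rule the first held for 5.51%. Over all 25 probe sets the counts were 4 and 0, against 4.9% and 5.94% of all probe sets. The mean over the 10 genes was 5.78, 5.82 and 5.83 in fusion tumors 1 to 3, against 5.93, 5.96 and 6.06 in vector tumors 1 to 3. These means do not overlap, yet 6 of the 10 genes stood at or below the dim level, where a difference in binding or background cannot be told apart from one in transcript. In such bulk RNA, fewer cells of a type and less RNA per cell also cannot be told apart.

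**Figure D3:**
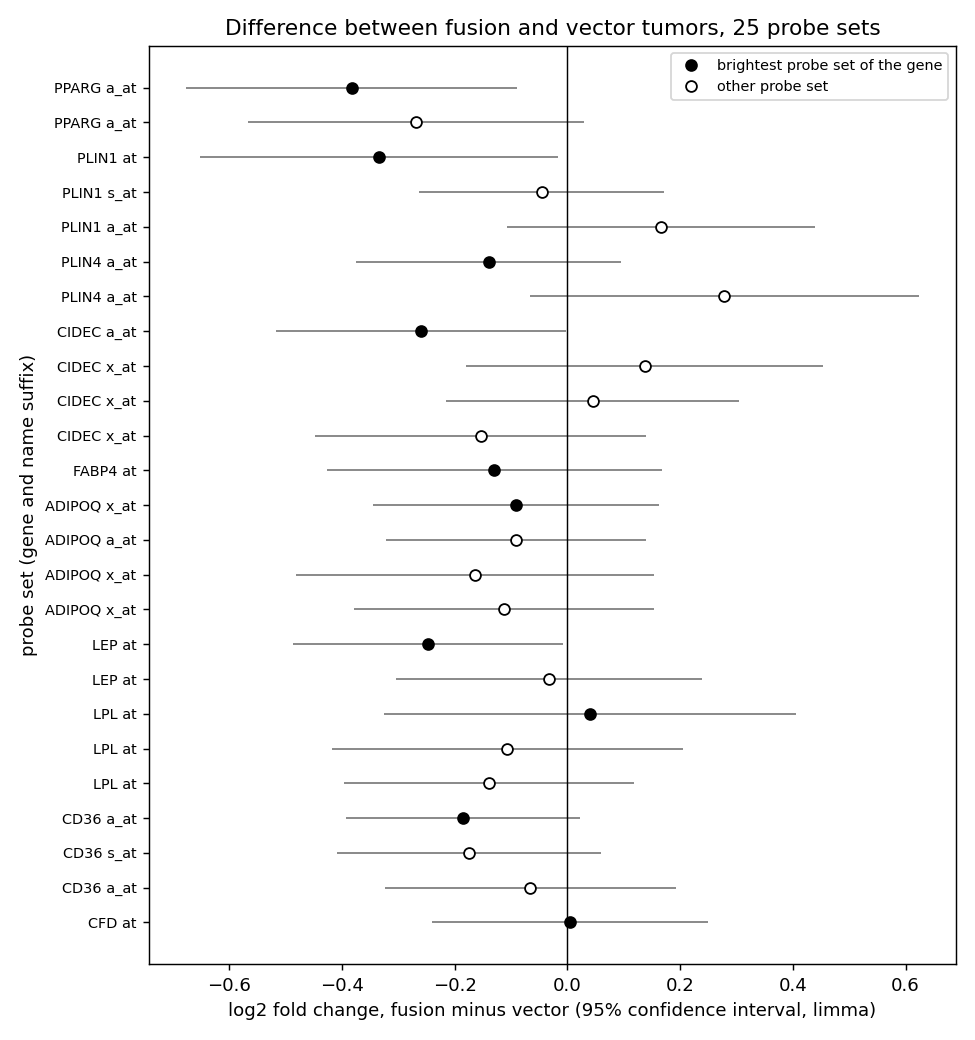
Log2 fold change, fusion minus vector, with 95% confidence interval (x axis) for the 25 probe sets (y axis, gene and Affymetrix suffix), filled where the probe set is the brightest of its gene. Intervals of the brightest PPARG, PLIN1, CIDEC and LEP probe sets lie below 0 before adjustment, and for PLIN1, PLIN4, CIDEC and LPL the probe sets of 1 gene differ in sign.

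Adipocyte markers outside the set overlapped between the groups in mean level. In a list of 14 other markers, among them the glycerol channel AQP7, the insulin-responsive glucose transporter SLC2A4 and hormone-sensitive lipase LIPE, 5 exceeded the dim level. Their median log2 fold change was -0.043, with 9 below 0 and 5 above, and limma called 0 and had 0 at an unadjusted p below 0.05 in either direction. The list's mean level was 5.52 to 5.63 in fusion tumors and 5.56 to 5.64 in vector tumors, which overlap. Of 21 adipogenic transcription factors, partners and opponents of PPARG such as CEBPA, CEBPB and RXRA, 13 exceeded the dim level. None passed, none had an unadjusted limma p below 0.05, and their median was -0.014 (10 above 0, 11 below). SREBF1 (log2 fold change -0.22) and RXRB (-0.13), both above the dim level, had every fusion tumor below every vector tumor. This held for 5.51% of all genes by brightest probe set, and 0 of the 21 factors had every fusion tumor above.

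Genes for handling fat that many cell types use had medians near 0. The lists share 4 genes with the other adipocyte markers (LIPE, CIDEA, GPD1 and PCK1). In the list of droplet proteins and lipases 12 of 16 exceeded the dim level, with a median log2 fold change of 0.00084 and 0 calls. PLIN2, a widely expressed perilipin, read 6.88, 6.98 and 7.04 in fusion tumors against 5.89, 6.76 and 6.74 in vector tumors. All fusion values were above all vector values, with a log2 fold change of 0.50 (SE 0.21, limma adjusted p = 0.950), which was 0.22 without vector tumor 1. ABHD5, the co-activator of droplet triglyceride lipase, read 6.98, 6.98 and 7.09 in fusion tumors against 7.64, 7.28 and 7.19 in vector tumors. All fusion values were below all vector values, with a log2 fold change of -0.35 (SE 0.13, limma adjusted p = 0.891), and -0.22 without vector tumor 1.

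The median log2 fold change was 0.047 over 13 triglyceride synthesis enzymes and 0.031 over 19 genes of fatty acid uptake, binding and activation, again with 0 calls. ANGPTL4, a PPAR target that inhibits LPL, read 9.74, 9.57 and 9.28 in fusion tumors against 8.98, 8.97 and 8.67 in vector tumors. That is a log2 fold change of 0.65 (SE 0.14, adjusted p = 0.448), opposite in sign to PPARG. Any relation of the ANGPTL4 values to PPARG was not tested. Over 9 adipokine receptors, adipokines and complement genes the median was -0.0032, with NAMPT at 0.47 (SE 0.11, adjusted p = 0.507).

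Markers of other cell types that a tumor piece could hold were read in the same tumors. Skeletal muscle transcripts spread most: TNNC2, a fast muscle troponin, read 5.60, 9.31 and 6.21 in fusion tumors and 8.66, 7.36 and 6.30 in vector tumors. It is a gene singled out after its values were seen. Its log2 fold change was -0.40, and 0.21 without vector tumor 1. ACTA1, skeletal actin, was likewise highest in fusion tumor 2 (8.90) and vector tumor 1 (8.96). The mean of 11 muscle markers was 5.51 to 6.26 in fusion tumors and 5.70 to 6.34 in vector tumors, and 5 of the 11 exceeded the dim level. MYH2, a fast muscle myosin with the smallest p of that list, had a log2 fold change of -0.34 (SE 0.12, limma adjusted p = 0.881). At a mean of 4.89, MYH2 did not exceed the dim level. No adipocyte probe set spread over more than 0.75 between its lowest and highest tumor, against 3.71 for TNNC2. Fusion tumor 2 and vector tumor 1 were not the highest tumors in the mean of the 10 adipocyte genes, of which only 4 exceeded the dim level. Any part of host tissue in the muscle or adipocyte readings was not tested.

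Fibroblast markers had means of 6.84 to 6.92 in fusion tumors against 6.62 to 6.75 in vector tumors, with 6 of 12 above the dim level. By brightest probe set, 481 of 18132 genes were higher at an unadjusted limma p below 0.05 and 413 lower. Every fusion tumor was above every vector tumor for 998. Of the 12 fibroblast markers, 4 were higher at that p and 0 lower. These 4, each with every fusion tumor above every vector tumor, were the protease FAP (log2 fold change 0.91, limma adjusted p = 0.291), the collagens COL1A1 (0.65, adjusted p = 0.772) and COL1A2 (0.24, adjusted p = 0.896), and the surface protein THY1 (0.36, adjusted p = 0.855). None passed the threshold. That list includes PDGFRA, at 12.91 to 13.08 in fusion tumors and 12.76 to 13.41 in vector tumors, a level near the top of the arrays. Its log2 fold change was -0.15. COL1A2, at a mean of 5.34, did not exceed the dim level. Readings of this list from host cells and from the implanted human cells were not told apart. The mean of the 10 adipocyte genes was lower in the fusion tumors, and any part of fibroblast content in that was not tested. Endothelial markers had means of 5.71 to 5.74 in fusion tumors and 5.64 to 5.74 in vector tumors, and 7 of 12 exceeded the dim level. Their median log2 fold change was 0.059, with 9 above 0 and 3 below. For 2 of them every fusion tumor was above every vector tumor, and for 0 every fusion tumor was below. The endothelial cadherin CDH5 had the smallest p of the endothelial list, with a log2 fold change of -0.29 (SE 0.16, limma adjusted p = 0.976). It was -0.12 without vector tumor 1, and CDH5, at a mean of 5.06, did not exceed the dim level.

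Macrophage and leukocyte markers had means of 4.93 to 4.96 in fusion tumors and 4.85 to 4.94 in vector tumors, with 4 of 12 above the dim level. Their median log2 fold change was -0.018, with 5 above 0 and 7 below. Of those 4 above the dim level, CD68 and CSF1R (0.17) were higher in fusion tumors, and TYROBP (-0.13) and AIF1 (-0.039) lower. For CSF1R every fusion tumor was above every vector tumor, and for TYROBP every fusion tumor was below every vector tumor. CD68, a lysosomal glycoprotein of macrophages, read 8.73, 8.31 and 8.50 in fusion tumors against 7.78, 7.68 and 7.69 in vector tumors. Every fusion tumor was above every vector tumor, with a log2 fold change of 0.80 (SE 0.12, limma adjusted p = 0.144), which did not pass, and 0.83 without vector tumor 1. Its probe set carries the suffix _x_at, and its part in the FABP4, CD36 and CFD values was not tested. The macrophage markers CD14, CD163 and MRC1 did not exceed the dim level, nor did the pan-leukocyte marker PTPRC, at 3.80 to 3.89 in fusion tumors and 3.78 to 3.99 in vector tumors.

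**Figure D4:**
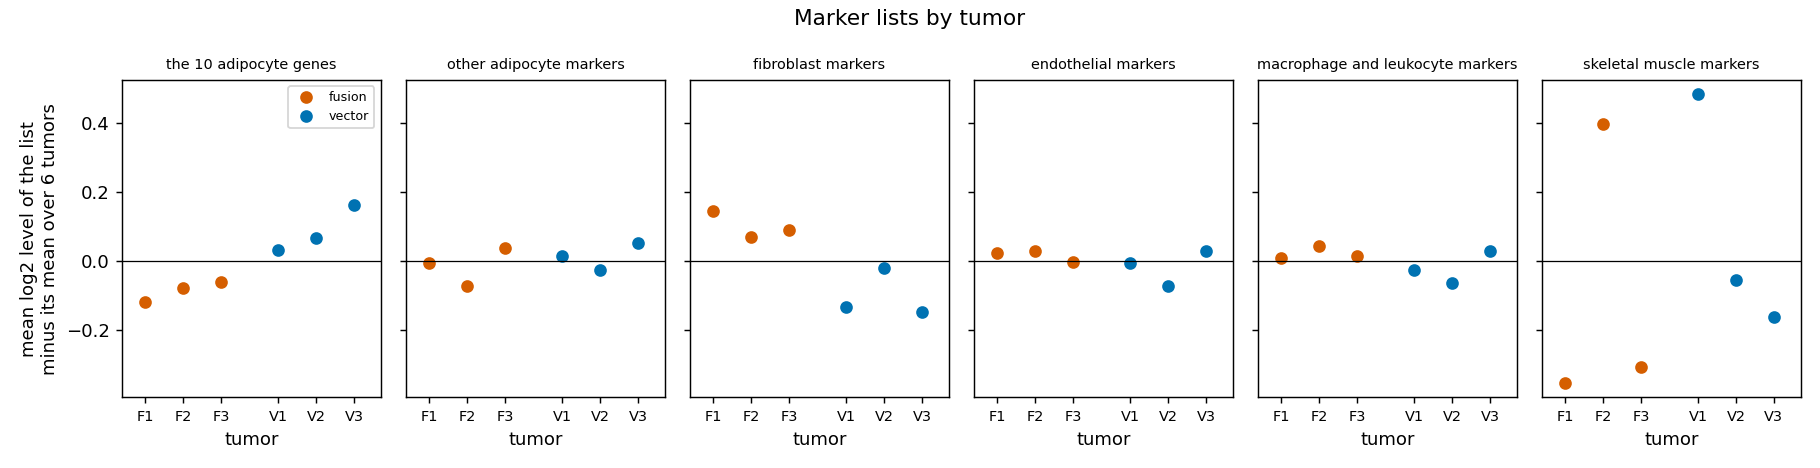
Mean log2 level of each marker list in each tumor minus the list's mean over the 6 tumors (y axis), for fusion tumors F1 to F3 (orange) and vector tumors V1 to V3 (blue). The 10 adipocyte genes lie lower in all 3 fusion tumors, other adipocyte markers overlap, fibroblast markers lie higher in all 3 fusion tumors, and muscle markers are highest in F2 and V1.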

How the data were processed

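The authors deposited log2 probe set values of 6 Affymetrix arrays, 1 per tumor. That scale was inferred from their range, since the table states no unit. How the arrays were background corrected, normalized and summarised is not given in the sources used here, and there were no detection calls to use. Groups and replicate numbers came from the sample titles. Platform annotation named 1 gene for 44988 probe sets, several for 1832 and none here for 2473. All 25 adipocyte probe sets had their gene identifier among the RefSeq genes, with the same symbol. No probe set naming several genes named one of the 10.

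The groups were compared by limma (version 3.58.1, R version 4.3.3), using lmFit and then eBayes without trend or robust fitting. Tests were two-sided, and p values were adjusted over all 49293 probe sets by Benjamini-Hochberg. The fit used every probe set so that dim ones were kept. It was tested on simulated data. Lists were read through each gene's probe set with the highest mean. Named were all 10 genes with every probe set, from each other list some of the 4 genes with the smallest p, and the 5 genes most like PPARG. Scanner-level data were not analysed here. Further genes named to describe a list, such as AQP7, CEBPA, TNNC2, PDGFRA, CD163 and PTPRC, were chosen after their values were seen. The 10 genes and the lists were chosen with earlier results of these tumors known. Alternatives were 2 filters, 2 summaries per gene, quantile and median normalization, a variance trend, weighted arrays, a replicate block, another threshold and leaving out each tumor. Other software was the R package data.table (version 1.17.8), Python 3.11.15 and, for the figures, matplotlib 3.10.9.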

Additional observations from a re-analysis of the deposited data

How the results depend on the processing

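In all 16 alternative settings 0 adipocyte probe sets passed, as in the fit reported. At an unadjusted limma p below 0.05, 1 to 4 of the adipocyte genes kept were lower and 0 higher. By brightest probe set, the filters at the 30th and 50th percentile kept 7 and 4 of the 10 genes. Over the 138 alternative log2 fold changes of the 10 genes, 126 kept their sign and the adjusted p ran from 0.206 to 1.000. The 12 changes of sign fell on CFD, LPL and PLIN4. CFD turned from 0.0040 to -0.036 with array weights, -0.025 with median centring and -0.010 with quantile normalization, and ran from -0.057 to 0.074 when single tumors were left out. LPL turned to -0.043 with array weights and -0.068 with the mean of a gene's probe sets, with a range of -0.098 to 0.22 when single tumors were left out. PLIN4 became 0.069 with the mean of its probe sets. The count of adipocyte genes lower at an unadjusted p below 0.05, 4 as reported, is an alternative added after seeing the data. It was 2 with array weights, 2 with a variance trend and robust fitting, 2 with the replicate block, 1 with the filter at the 50th percentile, which removes dim genes, and 1 with the mean of a gene's probe sets. It was 1 to 3 when single tumors were left out (1 without fusion tumor 1, fusion tumor 2 or vector tumor 2, and 2 without vector tumor 1 or vector tumor 3). The median log2 fold change stayed between -0.14 and -0.080 over the adipocyte probe sets, or genes where summarised, that each setting kept. Genes above background numbered 4, with 8 at the olfactory receptor 75th percentile and 3 at the 99th. Calls over the whole table numbered 5, and 23 at an adjusted p of 0.1, 79 with array weights, 10 with 1 probe set per gene and the 30th percentile filter, 2 with the 50th percentile filter, 16 with the mean of a gene's probe sets, 11 with median centring, 8 with quantile normalization, 8 with the replicate block and 0 to 15 when single tumors were left out (0 without any one fusion tumor or vector tumor 3, 2 without vector tumor 2, 15 without vector tumor 1), with 1835 to 3458 at an unadjusted limma p below 0.05. Deviations of same-numbered tumors correlated at 0.13, 0.17 and 0.043, each the highest for its tumor, but the labels give no shared origin, so the number was not used as a pairing. The cause of these changes was not tested. Dim levels limit what can be read for 6 of the 10 genes.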

Other observations

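Vector tumor 1 held the lowest reading of the 6 tumors for PLIN2 and for 2 enzymes of triglyceride synthesis, genes chosen by the smallest p of their lists. LPIN1, a phosphatidate phosphatase, read 9.82, 9.52 and 9.86 in fusion tumors 1 to 3 against 8.57, 9.57 and 9.55 in vector tumors 1 to 3. GPAM, the acyltransferase of the first step, read 7.92, 7.94 and 7.99 in fusion tumors against 7.23, 7.93 and 7.80 in vector tumors. Without vector tumor 1 the log2 fold change of LPIN1 was 0.18 (limma adjusted p = 0.864), against 0.51 with it. The same tumor was not the lowest of the 6 in the mean of the 10 adipocyte genes.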
